A study of Sus scrofa with 6 samples.

Results

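Transcripts of the smooth muscle contractile apparatus, with the channels and calcium handling proteins that drive it, were described in pig (Sus scrofa) oviduct ampulla. The set was chosen by name: 40 gene symbols were listed, and 39 had a row in the deposited count table of 35670 Ensembl genes. SYNM had no row with its symbol and was not analysed here. The study counted polyadenylated RNA of ampulla tissue at 2 stages, early luteal (n = 3 libraries) and post-ovulatory (n = 3 libraries), all from females. The labels name no treatment, genotype, breed or age for either stage, and whether libraries of 1 stage stem from different animals is not stated; the p-values therefore reflect only how far these samples spread, and that spread may be technical. Library totals ran from 7370723 to 30954222 counts, and the lowest count of any of the 39 genes in any library was 16 (MYOCD, early luteal replicate 2), so all 39 passed the filter on low counts.

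Smooth muscle contracts when calcium, entering through voltage-gated channels or released from the sarcoplasmic reticulum, activates the myosin light chain kinase MYLK. The kinase phosphorylates the regulatory light chain MYL9, and the myosin heavy chain MYH11 then pulls on actin filaments. A phosphatase built on PPP1R12A reverses this, and RHOA with its kinases ROCK1 and ROCK2 holds the phosphatase back. In the oviduct, layers of smooth muscle surround the mucosa, and their contractions, with ciliary beat, move gametes and embryos along the tube. Because whole tissue was sampled, fewer muscle cells and less RNA of these genes per cell cannot be told apart.

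Replicates of the early luteal stage differed from each other more than the stages did. None of the 39 genes passed the threshold, a Benjamini-Hochberg adjusted p of 0.05 by quasi-likelihood in edgeR, and 0% of the 17920 tested genes did. At an unadjusted p under 0.05 stood 2 of the 39, KCNMA1 and ITPR1, both higher in early luteal tissue, against 7.11% of all tested genes, or 3.57% counting higher ones alone. DESeq2 also called 0 of the 39, where it called 0.971% of all tested genes. By the edgeR fold change of early luteal over post-ovulatory, 26 of the 39 lay higher and 13 lower, against 48.2% higher among all tested genes, and the median log2 fold change was 0.38, against -0.03 over all tested genes. That median is not a firm direction. The median difference of log2 levels was 0.08, with 22 genes higher and 17 lower, and the edgeR median was -0.13 when early luteal replicate 3 was left out, 0.81 when replicate 1 of that stage was, and 0.76 without post-ovulatory replicate 2. CNN1, TPM2, MYOCD and RYR3 have opposite signs on these 2 averages.

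The spread lay mainly between the early luteal libraries. In 34 of the 39 genes the lowest early luteal value was that of replicate 1, a position it held in 29.0% of all tested genes. In 25 of the 39 it was the lowest of all 6 libraries, against 11.3% of all tested genes. Early luteal replicate 3 was the highest of the 6 libraries in 21 of the 39 genes (15% of all tested genes) and early luteal replicate 2 in 10 (27.0% of all tested genes). Post-ovulatory replicate 2 was the highest of its stage in 33 of the 39 genes, against 35.8% of all tested genes. The pooled SD within a stage, on the log2 CPM scale, had a median of 0.92 over the 39 genes and 0.57 over all tested genes. The median SD was 1.20 within early luteal and 0.53 within post-ovulatory libraries, against 0.60 and 0.36 over all tested genes. The difference between stages exceeded the pooled SD in 8 of the 39 genes (20.5%), and in 37.7% of all tested genes. Without early luteal replicate 1 the median SD of the 39 genes was 0.55. A fall is built in, as that library was the lowest of its stage in 34 of them. The like value over all tested genes was not computed.

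**Figure D1:**
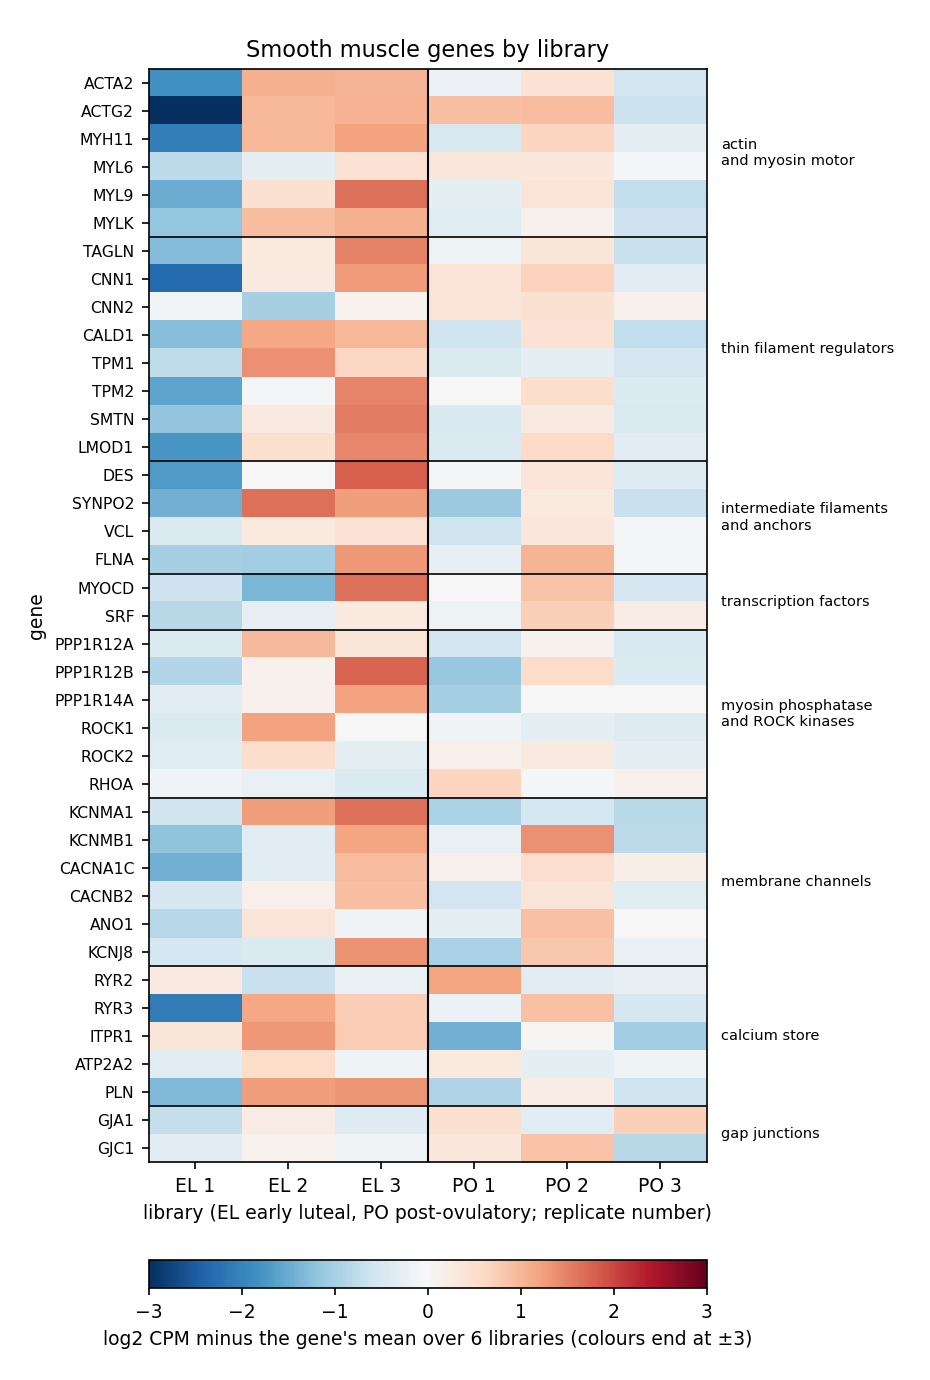
Each row is a gene, grouped by role, and each column a library; colour gives log2 CPM minus the gene's mean over the 6 libraries, red above and blue below that mean. Early luteal replicate 1 is blue in most rows of the contractile filaments, and early luteal replicate 3 red.

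The muscle genes were split, by textbook knowledge of where they are used, into 17 restricted largely to muscle, 14 that most cells use, and 8 other channels and stores. The split was made with earlier results of these data known, so it is not independent of them, and some genes could be placed otherwise. The spread differed along this split. Over the 17 muscle-restricted genes the median pooled SD was 1.19, and the difference between stages exceeded the SD in 0 of the 17. In 14 of these 17 genes both early luteal replicates 2 and 3 stood over 2-fold above early luteal replicate 1, which held for 4.94% of all tested genes and 2 of the 14 broadly used genes. The broadly used genes had a median pooled SD of 0.51. A score, the mean of centred log2 CPM, was -1.49, 0.42 and 1.37 for the muscle-restricted genes in early luteal replicates 1, 2 and 3, and -0.32, 0.51 and -0.49 in post-ovulatory replicates 1, 2 and 3. The 3 post-ovulatory scores lay between the lowest and the highest early luteal one. The muscle-restricted score less the broadly used score had a difference between the stage means of 0.11, which ran from -0.40 to 0.64 when each library was left out in turn.

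Marker lists of other cell types were scored in the same way, and their part in the results was not tested. All 5 genes used to check for smooth muscle (ACTA2, MYH11, DES, CNN1 and TAGLN) were present in every library, the lowest value being 43.3 CPM. Of 5 skeletal muscle markers with a row, ACTA1, MYH1 and TNNT3 stayed below 1 CPM and TNNI2 reached 1.19 CPM, while CKM, a creatine kinase that other muscle also expresses, stood at 0.322, 6.23 and 15.2 CPM in early luteal tissue, against 7.59, 10.4 and 6.71 CPM in post-ovulatory tissue. Summed levels of the 8 pericyte and vascular muscle markers ran from 157 to 249 CPM in early luteal and from 183 to 261 CPM in post-ovulatory libraries. Those of the 9 stromal markers ran from 1445 to 1683 CPM in early luteal and from 1707 to 3220 CPM in post-ovulatory libraries, while the scores of that list overlapped, at -0.07, -0.37 and -0.69 in early luteal and 0.39, 0.81 and -0.08 in post-ovulatory replicates. Leukocyte markers (5 genes) had scores of 1.0, -1.61 and -1.11 in early luteal replicates 1, 2 and 3, opposite in sign to the muscle scores of the same libraries. In post-ovulatory replicates they were 0.88, 0.99 and -0.15, opposite to the muscle-restricted score in replicate 1 and of the same sign in replicates 2 and 3. Epithelial scores (6 genes) were -0.16, -0.23 and 0.13 in early luteal and 0.30, -0.75 and 0.71 in post-ovulatory replicates. These scores lean on 1 gene, OVGP1, an oviduct glycoprotein. It stood at 292, 1017 and 2356 CPM in early luteal tissue, against 7302, 156 and 10688 CPM in post-ovulatory tissue. Its log2 SD over post-ovulatory libraries was 3.37, the next largest of the list being 0.62. Early luteal replicate 2 also stood apart over all genes, at 175.8 on a first principal component (55.9% of the variance) where the others lay between -51.0 and 2.39.

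**Figure D2:**
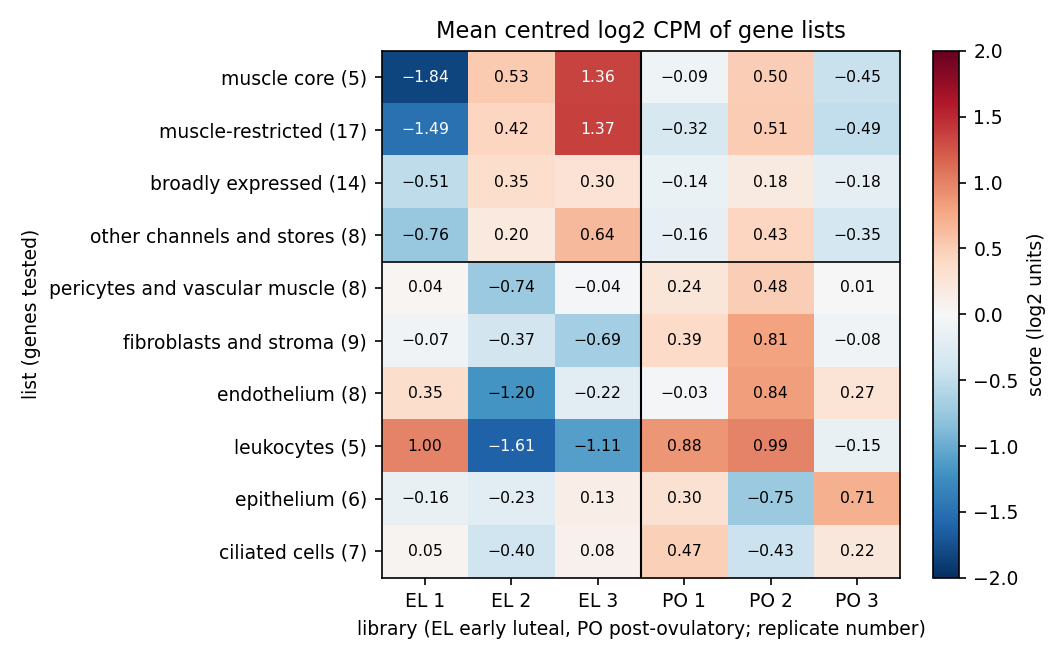
Each cell gives a list's score in one library, the mean over its tested genes (number in parentheses) of log2 CPM centred on the mean of that gene over 6 libraries. The muscle core is ACTA2, MYH11, DES, CNN1 and TAGLN; the 4 muscle lists (top) range from -1.84 to 1.37, with early luteal replicate 1 lowest in each.

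In the results that follow, 3 values of a stage are those of replicates 1, 2 and 3 in that order, as CPM with TMM scaling, and fold changes, early luteal divided by post-ovulatory, are on the log2 scale with their SE. CPM is not corrected for transcript length, so levels are compared between libraries and not between genes.

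All 6 genes of the motor itself, actins, myosin and its kinase, were lowest of the 6 libraries in early luteal replicate 1, against 11.3% of all tested genes. None of the 6 passed the threshold between the stages. ACTA2, the alpha actin of smooth muscle, stood at 100.03, 738 and 714 CPM in early luteal tissue, against 311, 469 and 239.8 CPM in post-ovulatory tissue. MYH11, the smooth muscle myosin heavy chain, stood at 493, 4139 and 4766 CPM in early luteal tissue, against 1493, 3260.1 and 1692 CPM in post-ovulatory tissue. In both genes early luteal replicates 2 and 3 lay above, and replicate 1 below, all 3 post-ovulatory libraries. The log2 fold change was 0.61 ± 0.65 for ACTA2 and 0.54 ± 0.72 for MYH11 (edgeR adjusted p = 0.837 and 0.867).

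ACTG2, the gamma actin of visceral smooth muscle, had the largest pooled SD of the 39 genes, 1.85. It stood at 16.04, 303 and 313 CPM in early luteal tissue, against 283, 287 and 97.3 CPM in post-ovulatory tissue. Early luteal replicates 2 and 3 stood at 18.9 and 19.5 times replicate 1, and the stages overlapped (log2 fold change -0.08 ± 0.87, edgeR adjusted p = 0.986). Set against ACTA2 of the same library, the log2 ratio of ACTG2 to ACTA2 was -2.64, -1.28 and -1.19 in early luteal and -0.13, -0.71 and -1.30 in post-ovulatory replicates. Early luteal replicate 1 thus held less ACTG2 for its ACTA2 than any other library, while the other 2 early luteal libraries lay within the post-ovulatory range. The difference of the means was -0.99 (exact permutation test, two-sided, p = 0.30, the smallest possible p being 0.10), and it stayed negative without each library in turn (-1.28 to -0.52). The actin proteins are near-identical, so reads could be split between the genes where their transcripts are alike. How many reads this touches was not measured.

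MYLK, the kinase that switches the motor on, stood at 609, 2581 and 2819.8 CPM in early luteal tissue, against 1054, 1490.0 and 887 CPM in post-ovulatory tissue. It had the lowest unadjusted p of the 6 motor genes (log2 fold change 0.81 ± 0.54, adjusted p = 0.758, edgeR). Its substrate MYL9 stood at 80.8, 309.6 and 718 CPM in early luteal tissue, against 185, 298 and 136 CPM in post-ovulatory tissue and was highest in early luteal replicate 3, 8.88-fold above early luteal replicate 1. MYL6, the essential light chain that most cells use, varied less, from 332 to 767 CPM in early luteal and from 553 to 719 CPM in post-ovulatory libraries.

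**Figure D3:**
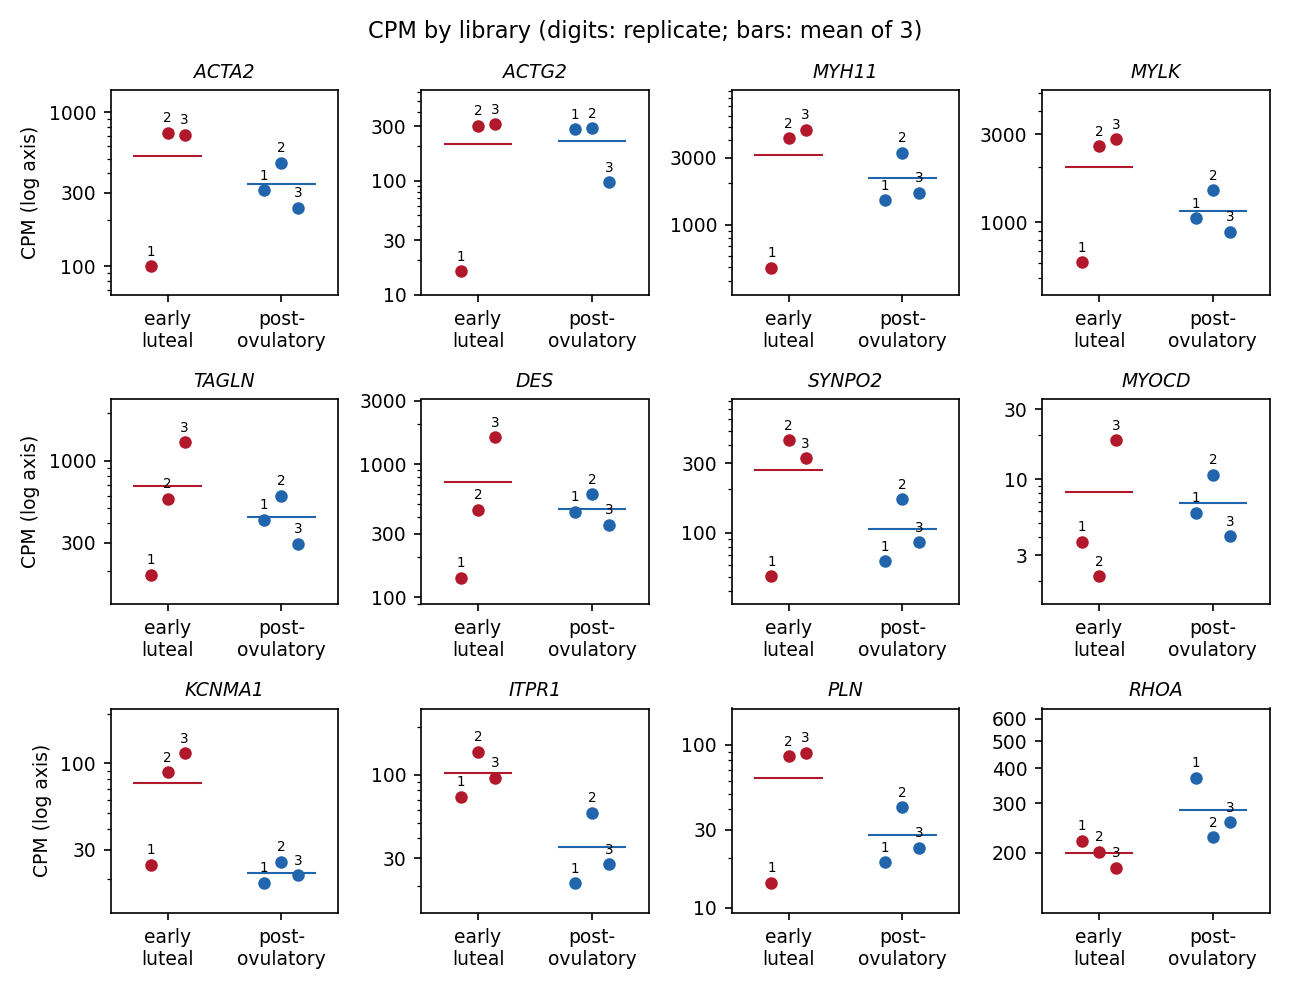
Each panel gives one gene's CPM on a log axis in the 3 early luteal (red) and 3 post-ovulatory (blue) libraries, with the replicate number above each point and a bar at the arithmetic mean. Early luteal replicate 1 lies below all other libraries in ACTA2, ACTG2, MYH11, MYLK, TAGLN, DES, SYNPO2 and PLN, but not in MYOCD, KCNMA1, ITPR1 or RHOA.

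Thin filament regulators repeated the pattern, with none past the threshold. By edgeR fold change 7 of 8 were higher and 1 lower, against 48.2% higher among all tested genes. By the difference of mean log2 levels, however, CNN1 and TPM2 were lower (-0.50 and -0.10). TAGLN, an actin-binding protein of smooth muscle, stood at 189, 573 and 1308 CPM in early luteal tissue, against 421, 599 and 296 CPM in post-ovulatory tissue. CNN1, the calponin that inhibits actomyosin, stood at 43.3, 262 and 521 CPM in early luteal tissue, against 285, 348 and 171 CPM in post-ovulatory tissue. Both were highest in early luteal replicate 3 and lowest in early luteal replicate 1. CALD1, caldesmon, which blocks myosin from actin, stood at 452, 2442 and 2175 CPM in early luteal tissue, against 720.5, 1469 and 655 CPM in post-ovulatory tissue. TPM1, an actin-binding tropomyosin, stood at 667, 2900.0 and 1744 CPM in early luteal tissue, against 838, 928 and 791 CPM in post-ovulatory tissue.

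TPM1 had the lowest unadjusted p of the group (log2 fold change 1.05 ± 0.49, adjusted p = 0.685, edgeR), and its post-ovulatory libraries were close to each other. Its fold change was 0.50 without early luteal replicate 2 and 1.47 with replicate 1 left out instead. CNN2, a calponin of many cell types, stood at 59.8, 31.7 and 67.8 CPM in early luteal tissue, against 82.6, 87.5 and 69.3 CPM in post-ovulatory tissue. Every early luteal value of CNN2 lay below every post-ovulatory one, by a margin of 67.8 against 69.3 CPM at the nearest, and its log2 fold change was -0.59 ± 0.32 (edgeR adjusted p = 0.716). The remaining TPM2, SMTN and LMOD1 were 8.23-fold, 6.59-fold and 9.30-fold higher in early luteal replicate 3 than in early luteal replicate 1, with adjusted p of 0.913, 0.781 and 0.857 between the stages (edgeR).

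Among the intermediate filaments and anchors, DES, desmin, which ties the contractile units together, stood at 141, 457 and 1598 CPM in early luteal tissue, against 442, 598 and 352 CPM in post-ovulatory tissue. SYNPO2, which binds actin bundles at dense bodies, stood at 50.5, 433 and 325 CPM in early luteal tissue, against 63.6, 169 and 86.3 CPM in post-ovulatory tissue. DES peaked in early luteal replicate 3 and SYNPO2 in early luteal replicate 2. SYNPO2 had a log2 fold change of 1.34 ± 0.70 (edgeR adjusted p = 0.708), which was 0.82 without early luteal replicate 2 and 1.86 with replicate 1 left out instead. FLNA, a filamin that crosslinks actin in most cells, stood at 252, 243 and 1242 CPM in early luteal tissue, against 423, 1021 and 479.8 CPM in post-ovulatory tissue. Its values were high in 1 library of each stage, early luteal replicate 3 and post-ovulatory replicate 2. VCL, vinculin of adhesion plaques, overlapped between the stages with 166 to 304 CPM in early luteal and 149 to 281 CPM in post-ovulatory libraries.

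The transcription factors that drive this set did not vary with it in every library. MYOCD, myocardin, the coactivator of SRF in smooth muscle, stood at 3.74, 2.17 and 18.6 CPM in early luteal tissue, against 5.88, 10.7 and 4.06 CPM in post-ovulatory tissue. Early luteal replicate 2, in which MYH11 stood at 4139 CPM, held the lowest MYOCD of all 6 libraries, from 16 counts, and early luteal replicate 3 the highest. That low place is not particular to MYOCD, as replicate 2 was the lowest of the 6 libraries in 39.3% of all tested genes. SRF, the factor that binds the promoters of contractile genes, stood at 5.93, 9.08 and 13.2 CPM in early luteal tissue, against 9.61, 17.7 and 12.6 CPM in post-ovulatory tissue. The log2 fold change was 0.26 ± 0.82 for MYOCD and -0.50 ± 0.46 for SRF, with overlapping stages (edgeR adjusted p = 0.95 and 0.809).

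Early luteal replicates 2 and 3 differed from each other as well as from replicate 1. Of the 17 muscle-restricted genes 15 were higher in replicate 3 than in replicate 2, and of the 14 broadly used genes 5 were, against 55.0% of all tested genes. MYOCD, FLNA, KCNJ8 and DES were 8.56-fold, 5.10-fold, 3.54-fold and 3.49-fold higher in replicate 3. ROCK1, ROCK2 and TPM1 stood in the other direction, at 0.442, 0.574 and 0.601 of their replicate 2 level. These are values of single libraries and carry no test. KCNJ8 and ROCK2 were named after their values were seen, and FLNA and TPM1 through the highest CPM and the lowest p of their roles.

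The genes of the phosphatase and of the kinases that oppose it, which set how much calcium is needed for a given force, stood on both sides, with 4 of 6 higher and 2 lower by fold change and none past the threshold. PPP1R12A, the targeting subunit of myosin phosphatase, stood at 261, 695 and 452 CPM in early luteal tissue, against 235, 385 and 256 CPM in post-ovulatory tissue. PPP1R14A, the small inhibitor of that phosphatase, stood at 21.5, 30.1 and 63.8 CPM in early luteal tissue, against 13.6, 27.4 and 27.2 CPM in post-ovulatory tissue. ROCK1, one of those kinases, stood at 179, 551 and 244 CPM in early luteal tissue, against 222, 196 and 183 CPM in post-ovulatory tissue, and only early luteal replicate 2 lay far from the rest. RHOA, the GTPase that activates the kinases, stood at 220.5, 202 and 177 CPM in early luteal tissue, against 370.3, 227 and 258 CPM in post-ovulatory tissue.

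All 3 early luteal values of RHOA lay below all 3 post-ovulatory ones, with the nearest pair at 220.5 and 227 CPM. Its pooled SD of 0.28 was the lowest of the set, and its log2 fold change was -0.51 ± 0.28 (edgeR adjusted p = 0.714). RHOA, CNN2 and ITPR1 were the 3 of 39 genes without overlap between the stages, against 17.2% of all tested genes, under each of 4 scalings of the libraries. The muscle-restricted PPP1R12B, a second phosphatase subunit, and ROCK2 overlapped between the stages (edgeR adjusted p = 0.774 and 0.98).

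**Figure D4:**
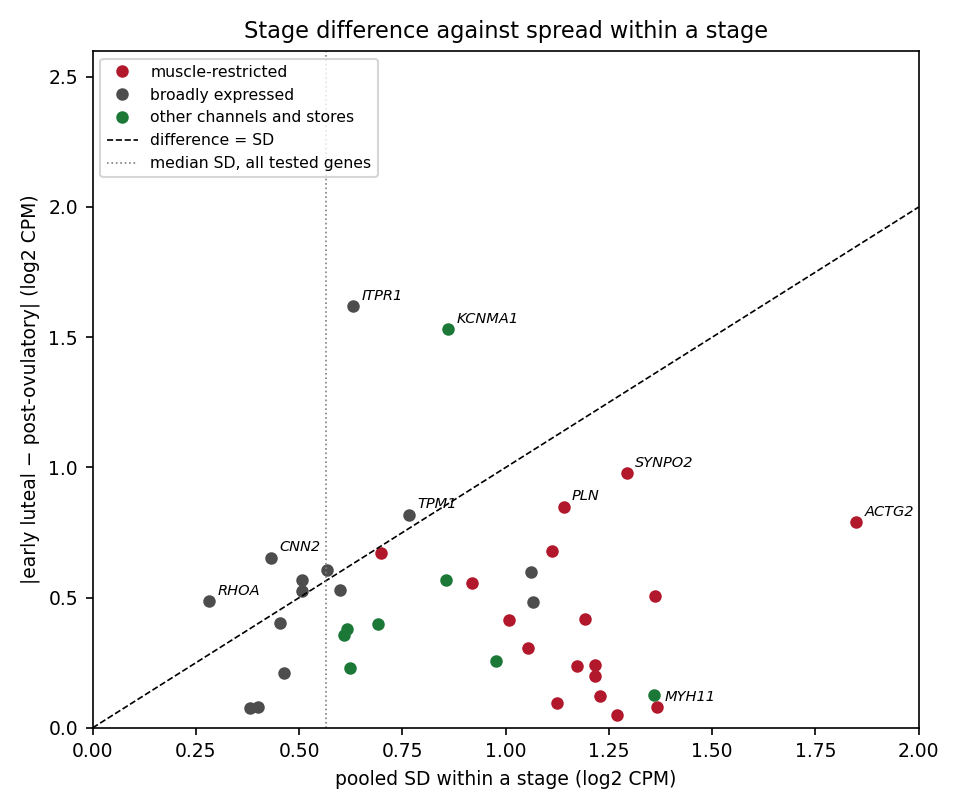
Each point is a gene, with the pooled SD of log2 CPM within a stage on the horizontal axis and the absolute difference between the stage means of log2 CPM on the vertical axis. All muscle-restricted genes (red) lie below the line where the difference equals the SD, and ITPR1 and KCNMA1 lie farthest above it.

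Membrane channels included the gene with the largest fold change of the set. KCNMA1, the pore of the large-conductance potassium channel that opens with calcium and depolarisation and relaxes muscle, stood at 24.3, 88.1 and 115 CPM in early luteal tissue, against 19.0, 25.4 and 21.0 CPM in post-ovulatory tissue. Early luteal replicates 2 and 3 lay far above all post-ovulatory libraries and replicate 1 within their range. The mean was 75.9 ± 46.8 CPM over the early luteal and 21.8 ± 3.27 CPM over the post-ovulatory libraries (SD, n = 3 each), and the log2 fold change was 1.80 ± 0.52 (edgeR adjusted p = 0.644; DESeq2 adjusted p = 0.0623). It kept its sign without each library in turn (1.35 to 2.24). The edgeR adjusted p was 0.0839 without early luteal replicate 1, its lowest early luteal library, where a larger difference is built in. The gene lies on chromosome 14 at 79345382 to 80106337 in the RefSeq annotation of Sscrofa11.1, where a long noncoding RNA gene overlaps it.

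KCNMB1, the beta subunit that tunes this channel in smooth muscle, stood at 16.5, 30.6 and 87.9 CPM in early luteal tissue, against 32.9, 99.9 and 22.1 CPM in post-ovulatory tissue. It was high in early luteal replicate 3 and post-ovulatory replicate 2 (log2 fold change -0.19 ± 0.71, edgeR adjusted p = 0.96). KCNMB1 overlaps KCNIP1 in that annotation, so its counts are uncertain where the counting did not use strand. CACNA1C, the pore of the L-type calcium channel that starts contraction, stood at 2.77, 6.10 and 15.03 CPM in early luteal tissue, against 8.56, 11.11 and 8.98 CPM in post-ovulatory tissue. Its 3 post-ovulatory values lay inside the early luteal range. ANO1, a calcium-activated chloride channel that depolarises muscle and pacemaker cells, stood at 12.3, 29.1 and 20.8 CPM in early luteal tissue, against 18.2, 41.0 and 22.1 CPM in post-ovulatory tissue and overlapped. CACNB2, an auxiliary calcium channel subunit, and KCNJ8, the pore of a vascular ATP-sensitive potassium channel that also marks pericytes, stayed below 10 CPM in every library, and both overlapped (edgeR adjusted p = 0.873 and 0.917).

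In the calcium store, ITPR1 was the gene of the set whose early luteal values all lay above all post-ovulatory ones. ITPR1, the inositol trisphosphate receptor that releases stored calcium, stood at 73.2, 139.7 and 96.2 CPM in early luteal tissue, against 20.9, 58.1 and 27.6 CPM in post-ovulatory tissue. The mean was 103 ± 33.8 CPM over the early luteal and 35.5 ± 19.8 CPM over the post-ovulatory libraries (SD, n = 3 each), with a log2 fold change of 1.54 ± 0.43 (edgeR adjusted p = 0.632; DESeq2 adjusted p = 0.0775). Early luteal replicate 1, lowest in most muscle genes, held 73.2 CPM of ITPR1, above the highest post-ovulatory library. The sign held without each library in turn (1.25 to 2.08). ITPR1 lies on chromosome 13 at 61068131 to 61398918 (RefSeq, Sscrofa11.1), where a long noncoding RNA gene overlaps it too.

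PLN, phospholamban, which restrains the store pump until it is phosphorylated, stood at 14.2, 84.8 and 89.2 CPM in early luteal tissue, against 19.0, 41.3 and 23.3 CPM in post-ovulatory tissue, in the pattern of the contractile genes (log2 fold change 1.17 ± 0.63, edgeR adjusted p = 0.713). The pump itself, ATP2A2, stood at 139, 251 and 156 CPM in early luteal tissue, against 209, 142 and 157 CPM in post-ovulatory tissue, without a like spread. RYR2, a ryanodine receptor known best from heart, stood at 9.21, 4.74 and 6.52 CPM in early luteal tissue, against 17.4, 5.94 and 6.36 CPM in post-ovulatory tissue, and post-ovulatory replicate 1 lay apart from the rest. RYR3, a ryanodine receptor of smooth muscle and brain, ran from 2.71 to 27.4 CPM in early luteal and from 8.47 to 22.2 CPM in post-ovulatory libraries. In the RefSeq annotation PLN overlaps CEP85L, ATP2A2 overlaps ANAPC7, SYNPO2 overlaps SEC24D and RYR3 overlaps AVEN, and reads of such pairs could be split between them.

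Gap junctions couple muscle cells so that they contract together. GJA1, connexin 43, stood at 60.9, 118 and 76.6 CPM in early luteal tissue, against 137, 80.6 and 163 CPM in post-ovulatory tissue. The stages overlapped, with early luteal replicate 2 above post-ovulatory replicate 2 (log2 fold change -0.58 ± 0.36, edgeR adjusted p = 0.738). GJC1, connexin 45, ran from 16.1 to 21.8 CPM in early luteal and from 11.4 to 36.6 CPM in post-ovulatory libraries (adjusted p = 0.857, edgeR).

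The genes were also set against the muscle RNA of their own library, a scale chosen after the values were seen. The mean log2 CPM of ACTA2, MYH11, DES, CNN1 and TAGLN was subtracted from each of the other 34 genes in each library. On this scale 4 of the 34 had all early luteal values above all post-ovulatory ones and none had them below, and in 1.09% of all tested genes the stages did not overlap. That share is no like measure for the set, because genes that vary with the 5 subtracted genes lose spread on this scale and others gain it. KCNMA1 stood at -2.54, -3.05 and -3.49 in early luteal, against -4.64, -4.81 and -4.14 in post-ovulatory libraries. SYNPO2, PLN and MYL9 were the other 3, with differences between the stage means of 0.95, 0.82 and 0.39 against 1.51 for KCNMA1. For each of the 4 the exact permutation test over the 6 libraries gave its smallest possible two-sided p of 0.10. Any gene without overlap between 3 and 3 libraries gets that p, so it adds nothing to the lack of overlap. The lowest p of this test adjusted over the 34 genes was 0.85.

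ITPR1 overlapped on this scale, at -0.95, -2.39 and -3.75 in early luteal and -4.50, -3.62 and -3.75 in post-ovulatory libraries. With the score of the 5 genes as a covariate in edgeR, 0 of the 39 genes passed, and the log2 fold change was 1.51 for KCNMA1 (adjusted p = 0.554) and 1.55 for ITPR1 (adjusted p = 0.711). The same fit gave 1.0 for SYNPO2 and 0.83 for PLN (adjusted p = 0.784 for both).

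**Figure D5:**
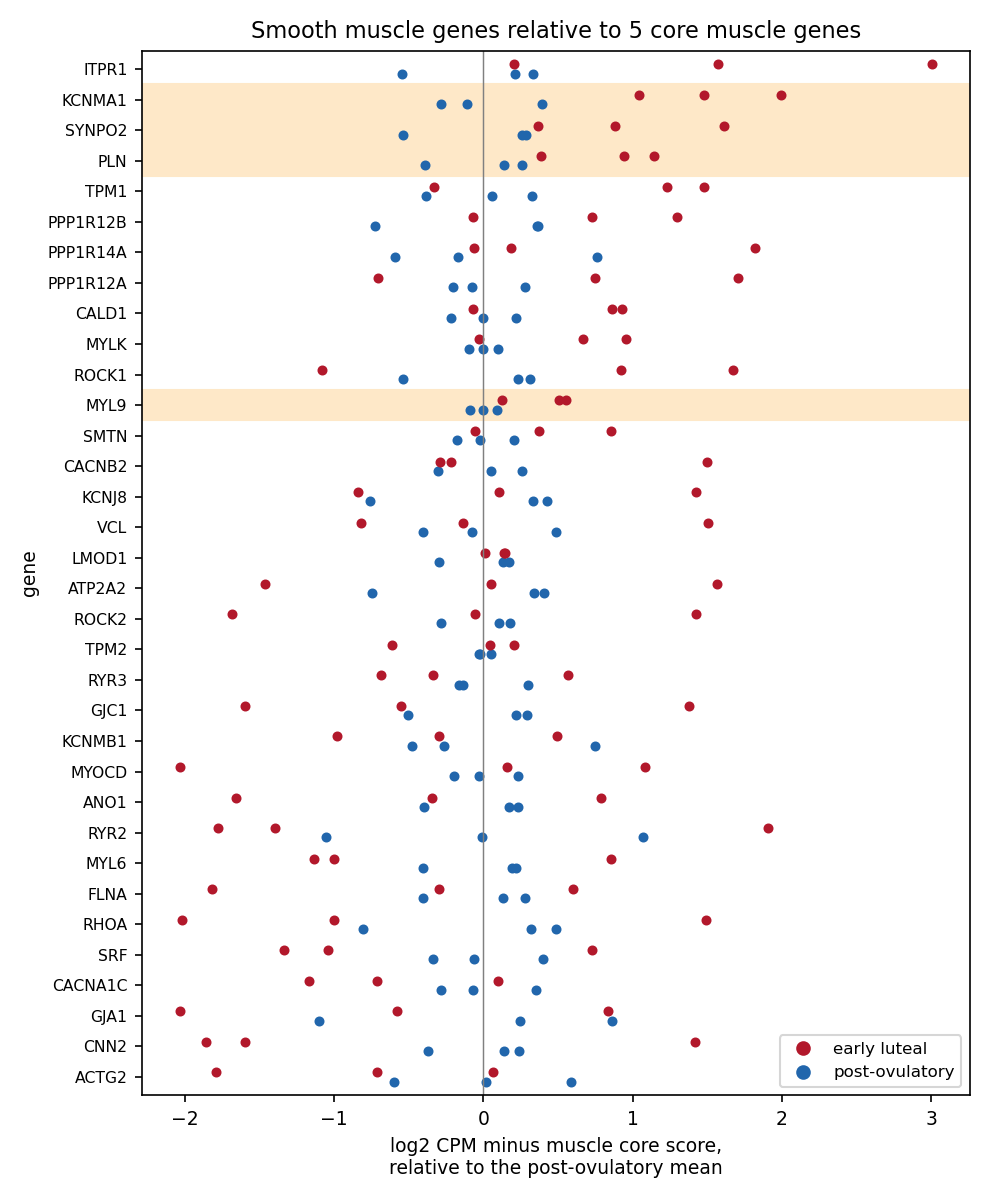
Each row is one of 34 genes; points give log2 CPM minus the mean log2 CPM of ACTA2, MYH11, DES, CNN1 and TAGLN in the same library, with the post-ovulatory mean of the gene set to 0. Shaded rows (KCNMA1, SYNPO2, PLN and MYL9) are those in which the early luteal (red) and post-ovulatory (blue) libraries do not overlap.

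Without early luteal replicate 1, the library with the least muscle RNA, 17 of the 39 genes had an unadjusted p under 0.05, all 17 of them higher in early luteal tissue, against 11.5% of all tested genes in that fit, or 5.85% counting higher ones alone. None passed the threshold (edgeR). The stages then did not overlap in 18 genes, against 33.9% of all tested genes. They did not overlap in 8 genes without early luteal replicate 3 (25.6% of all tested genes) and in 5 without post-ovulatory replicate 2 (27.3%). In the first fit of 2 against 3 libraries MYLK had a log2 fold change of 1.26 ± 0.35, ACTA2 of 1.12 ± 0.36 and MYH11 of 1.07 ± 0.42 (edgeR adjusted p = 0.319, 0.344 and 0.394). No label gives a ground to leave that library out. It was the lowest of its stage in 34 of the 39 genes, against 29.0% of all tested genes. A rise of early luteal values without it is thus built in, so the 17 genes add no evidence of a stage difference.

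Other genes of smooth muscle contraction, 80 in 3 lists that hold none of the 39, were read in the same fit. Of the 76 with a row 71 were tested, and none passed the threshold in edgeR (7 at an unadjusted p under 0.05, all higher in early luteal tissue, where 7.11% of all tested genes stood under it and 3.57% were higher), while DESeq2 called 1, RGS2 (adjusted p = 0.0293), and 0.971% of all tested genes. By fold change 38 of the 71 were higher and 33 lower, with a median of 0.05. RGS2, which switches off Gq-coupled receptors that contract muscle, stood at 201, 276 and 296 CPM in early luteal tissue, against 55.8, 129 and 32.4 CPM in post-ovulatory tissue, with no overlap (log2 fold change 1.84 ± 0.49, edgeR adjusted p = 0.631). ITGA8, an integrin subunit of smooth muscle and stroma, stood at 117, 86.4 and 94.4 CPM in early luteal tissue, against 35.9, 66.4 and 28.5 CPM in post-ovulatory tissue (a log2 fold change of 1.19 ± 0.35, edgeR adjusted p = 0.649). KCND3, the pore of a transient potassium channel, stood at 2.45, 4.20 and 8.71 CPM in early luteal tissue, against 0.968, 1.01 and 1.25 CPM in post-ovulatory tissue (a log2 fold change of 2.24 ± 0.67, edgeR adjusted p = 0.649). In these 3 genes early luteal replicate 1 lay above every post-ovulatory library, as it did in ITPR1 and not in ACTA2 or MYH11. The 3 were named for the lowest p of their lists and ITPR1 for its lack of overlap, so this is largely built in. Of the 71 further genes 11 had no overlap between the stages, against 17.2% of all tested genes. ACTG1 and ATP2B1, each the most abundant gene of its list, overlapped between the stages (edgeR adjusted p = 0.913 and 0.802).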

How the data were processed

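Total RNA of ampulla tissue gave stranded mRNA libraries (KAPA kit), sequenced from both ends on a NextSeq2000, per the labels' protocols. FastQC 0.11.4, Trim Galore, STAR and the build Sscrofa11.1 are named in the submitters' processing notes; for the read counter and its strand setting, the tool is not given in the sources used here. The authors deposited whole-number counts per Ensembl gene, of which 15623 of 35670 were paired with a symbol. The counts were tested with edgeR 4.0.16 (R 4.3.3), using TMM scaling, filterByExpr, the robust quasi-likelihood test of 3 early luteal against 3 post-ovulatory libraries and Benjamini-Hochberg adjustment over 17920 genes, with a threshold of 0.05. The script was tested on simulated data. CPM were computed from the counts over tested genes; log2 CPM used a prior count of 2. The SE is the log2 fold change divided by the square root of F. DESeq2 1.42.0 and limma 3.58.1 (voom) were alternatives. The common biological coefficient of variation was 0.485. The genes and lists were chosen with earlier results of these data known. Genes given by library were a panel of 21, those with the lowest p or highest CPM of each role, and those without overlap between stages; of other lists, the genes with the lowest p and highest CPM.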

Additional observations from a re-analysis of the deposited data

How the results depend on the processing

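The number of the 39 genes called stayed at 0 under every alternative run, among them 4 scalings, 3 filters, DESeq2 and limma voom. Over all genes 8 passed with no filter on low counts, 174 in DESeq2 and 9 in voom with sample quality weights, against 0 in edgeR. Of the 39 genes, 4 had an unadjusted p under 0.05 in DESeq2 (9.76% of all tested genes) and 4 with the muscle score as a covariate (6.28%; an alternative chosen after seeing the data), against 2 in edgeR (7.11%); of the further genes DESeq2 called 1. When each library was left out in turn, 2 to 17 of the 39 had an unadjusted p under 0.05, 3 to 18 did not overlap, the median SD ran from 0.55 to 1.03 and the median log2 fold change from -0.13 to 0.81.

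Of 448 alternative values for the 28 of the 39 genes given by library, 418 kept the direction and side of the threshold and 30 reversed the direction. KCNMA1 and ITPR1 stayed positive in all. The log2 fold change of CNN1 was -0.51 in voom and -0.54 with the covariate. Voom with sample quality weights gave 0.24 for FLNA, 0.67 for KCNMB1, 0.034 for RYR2 and -0.026 for ATP2A2. Leaving out each library gave -0.50 to 0.49 for ACTG2, -0.71 to 0.036 for ANO1, -0.20 to 0.29 for ATP2A2, -1.13 to 0.16 for CACNA1C, -0.83 to 0.56 for CNN1, -0.65 to 1.16 for DES, -1.38 to 0.35 for FLNA, -1.15 to 0.70 for KCNMB1, -0.10 to 1.33 for MYL9, -1.21 to 0.71 for MYOCD, -0.81 to 0.14 for RYR2 and -0.22 to 1.11 for TAGLN. The cause was not tested.

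Deviations of same-numbered libraries from their stage means had correlations of 0.05, -0.08 and 0.13. With 3 libraries per stage, such low correlations cannot decide whether the numbers pair the samples. With the replicate number as a block 0 genes were called, the median of the 39 genes was 0.11, and the log2 fold change was -0.48 for CNN1, -0.013 for DES and -0.28 for MYOCD. Early luteal replicates 1 and 2 did not correlate best with their own number, while replicate 3 did. Depth limits low genes such as MYOCD, with 16 counts in its lowest library, and KCNJ8, with 18.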

Other observations

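Among the marker lists, KIT, a receptor of interstitial pacemaker cells and mast cells, had all early luteal values above all post-ovulatory ones, with 177, 55.8 and 68.0 CPM in early luteal tissue, against 30.4, 29.3 and 32.3 CPM in post-ovulatory tissue. It missed the threshold in edgeR (log2 fold change 1.71 ± 0.44, adjusted p = 0.596) and passed in DESeq2 (adjusted p = 0.0311). The other 2 genes of the pacemaker list did not share that direction. ETV1, a transcription factor, stood at 16.8, 14.0 and 7.65 CPM in early luteal tissue, against 16.9, 19.2 and 17.6 CPM in post-ovulatory tissue, with all early luteal values below, and GPR20, a receptor too low to be tested, reached at most 0.451 CPM in any early luteal library and 2.91 CPM in any post-ovulatory one. The highest value of KIT was that of early luteal replicate 1, the library lowest in most contractile genes. ANO1, which pacemaker cells also express, was lowest in that library.

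COL1A1, the collagen chain with the lowest p of the stromal markers, stood at 91.3, 135 and 104 CPM in early luteal tissue, against 497, 597 and 184 CPM in post-ovulatory tissue (edgeR adjusted p = 0.554; DESeq2 adjusted p = 0.00794). Among the 8 pericyte and vascular muscle markers, MCAM, an adhesion molecule of vascular muscle, stood at 27.6, 68.4 and 139 CPM in early luteal tissue, against 49.2, 79.7 and 38.5 CPM in post-ovulatory tissue. PDGFRB, a growth factor receptor of pericytes named after its values were seen, was in contrast highest of its stage in early luteal replicate 1, with 61.2, 24.0 and 16.6 CPM in early luteal tissue, against 46.3, 72.5 and 54.0 CPM in post-ovulatory tissue. The score of that list was 0.04, -0.74 and -0.04 in early luteal and 0.24, 0.48 and 0.01 in post-ovulatory replicates, without the order of the muscle scores.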
